A study of Mus musculus with 6 samples.

Results

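The core circadian clock loop is described here as 10 genes, *Arntl*, *Clock*, *Npas2*, *Per1*, *Per2*, *Per3*, *Cry1*, *Cry2*, *Nr1d1* and *Nr1d2*, of the 21367 genes in the table. They were found by symbol, and all 10 passed the filter on low counts, as 13036 genes of the table did. The set was chosen from earlier measured values of the same comparison, so the differences between the groups given below are a description and not an independent test. Kidney mRNA was sequenced from 3 *Ptpn6*+/mev mice, which are heterozygous for the viable motheaten splice-site allele of the gene for the phosphatase SHP-1, and from 3 wild-type littermates, all 7 weeks old and on a C57BL/6 background. In every mouse of both groups the right kidney had been removed and the pedicle of the left kidney clamped for 34 min, and the left kidney was taken 24 h later, so all 6 libraries come from injured tissue and no uninjured kidney was analysed here. The allele is inherited, so no cell type is singled out, and the labels class these mice as an SHP1 knockdown. The time of day of surgery and of sampling and the sex of the mice are not given in the sources used here.

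The mammalian clock is a transcription loop. BMAL1, the product of *Arntl*, pairs with CLOCK or with its relative NPAS2 and activates genes that carry E-boxes, among them the *Per*, *Cry* and *Nr1d* genes. The PER and CRY proteins then inhibit that pair, while the REV-ERB receptors encoded by *Nr1d1* and *Nr1d2* repress *Arntl* and *Npas2*, so that *Arntl* and *Npas2* RNA peaks at another time of day than *Per* and *Nr1d* RNA. In the kidney the loop runs in tubular cells and sets daily rhythms of sodium, water and solute transport.

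Short stretches of the promoters are shown because they carry the letters through which the arms of the loop are known to act on each other. RefSeq promoter sequences on GRCm38.p6, 250 bases before and 50 after a start, were found for 9 of the 10 genes in 13 entries, and *Per2* had none. Capitals mark the E-box CACGTG, bound by CLOCK-BMAL1, and the D-box TTANGTAA, bound by DBP, TEF and HLF. They also mark TNGGTCA, which is looser than TAGGTCA or TGGGTCA, the core of the element bound by ROR and REV-ERB receptors. Each was searched on both strands. The first 3 lines are the 250 bases before a start of *Per3* (chr4:151044666-151044915, minus strand), *Per1* (chr11:69098699-69098948, plus strand) and *Cry1* (chr10:85185055-85185304, minus strand), and the last is a site of 30 bases at chr7:113207530-113207559, plus strand, just after a start of *Arntl*.
Per3: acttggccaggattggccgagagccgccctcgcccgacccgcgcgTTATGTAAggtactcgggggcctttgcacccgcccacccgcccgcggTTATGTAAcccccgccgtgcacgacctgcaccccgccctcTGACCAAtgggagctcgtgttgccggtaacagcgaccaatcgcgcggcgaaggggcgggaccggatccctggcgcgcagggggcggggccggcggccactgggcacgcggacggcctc
Per1: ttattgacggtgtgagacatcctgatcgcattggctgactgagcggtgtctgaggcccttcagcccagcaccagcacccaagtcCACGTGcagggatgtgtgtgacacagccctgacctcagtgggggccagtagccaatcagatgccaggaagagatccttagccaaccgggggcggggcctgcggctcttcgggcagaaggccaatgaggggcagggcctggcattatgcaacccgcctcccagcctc
Cry1: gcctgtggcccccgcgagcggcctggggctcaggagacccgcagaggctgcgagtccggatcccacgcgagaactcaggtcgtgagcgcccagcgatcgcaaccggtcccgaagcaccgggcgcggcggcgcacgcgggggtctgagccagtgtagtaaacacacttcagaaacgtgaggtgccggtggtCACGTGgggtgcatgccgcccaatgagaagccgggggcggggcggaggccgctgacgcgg
Arntl: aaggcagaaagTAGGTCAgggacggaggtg

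*Per3* carried the D-box letters at -205 and -158 from its start, against 2.32% of all 32851 promoters with any such match. The E-box letters, present in 7.15% of all promoters, were found at -166 in *Per1* and at -60 in *Cry1*. TNGGTCA occurred in 10.96% of promoters. It matched *Arntl* at -200 and -181 from one start and at 31 bases after another, and on the reverse strand it matched *Per3* at -118 and *Cry2* at -133. The site after the start of *Arntl* reads TAGGTCA, and it was the only match among the 9 genes when the search was narrowed, after these matches had been seen, to TAGGTCA or TGGGTCA, which 6.45% of promoters hold. The other matches, including TGACCAA in the *Per3* line above, fit the loose form only and are not marked as receptor sites. No match was found in the windows of *Clock*, *Npas2*, *Nr1d1* or *Nr1d2*. These are matches of letters and no binding was measured.

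The libraries held between 10271590 and 12361745 counts, and levels are given as FPKM, fragments scaled to transcript length and library size. *Ptpn6* itself was at 11.85, 14.66 and 13.61 FPKM in *Ptpn6*+/mev replicates 1 to 3 and at 17.47, 10.87 and 15.44 in wild-type replicates 1 to 3, so its RNA overlapped between the groups, and a splice-site allele need not lower the RNA level. Kidney markers were present in all libraries. Summed FPKM of 8 proximal tubule markers was 639 to 792 in *Ptpn6*+/mev and 897 to 1074 in wild-type kidneys, without overlap, and 4 of the 8 genes did not overlap between the groups, as 20.4% of all tested genes did not. The 8 markers of tubular injury had a median log2 fold change of 0.09, and 2 of them did not overlap, a share near that of all genes. These were *Vcam1* (1.05, edgeR quasi-likelihood FDR = 0.188) and *Havcr1* (0.27, FDR = 0.325), both higher in *Ptpn6*+/mev, whereas *Spp1* was at -0.38 (FDR = 0.331). DESeq2's Wald test and edgeR's exact test each called *Vcam1* alone among the injury markers and 4 of the 8 proximal tubule markers. Over all genes these tests called 2.97% and 2.99%. The summed FPKM of the 8 injury markers, most of it *Spp1*, overlapped, at 26194 to 32126 in *Ptpn6*+/mev and 29660 to 38360 in wild-type kidneys. Wild-type replicate 2 stood apart from its group, with 50.9 summed FPKM of 6 fibroblast markers against 242 in both other wild-type libraries and 79.2 for 6 endothelial markers against 165 and 180. Summed FPKM of 3 blood markers was 1024 in *Ptpn6*+/mev replicate 1 and 842 in wild-type replicate 1, against 325 to 402 in the other libraries. These libraries are the highest and the lowest for *Arntl* and *Npas2* below. Of 7 macrophage markers the sum was 164 in *Ptpn6*+/mev replicate 1, against 263 and 270 in its group. In whole tissue, fewer cells of a type and less RNA per cell cannot be told apart. The part of tubule content, tubular injury, blood or any library in the values below was not tested, except where values without that library are given.

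*Arntl*, *Npas2* and *Clock* form the positive limb. *Arntl* (ENSMUSG00000055116, chr7:113207465-113314126) was at 6.29, 2.77 and 3.58 FPKM in the *Ptpn6*+/mev kidneys and at 0.89, 1.29 and 2.25 FPKM in the wild-type kidneys. Every *Ptpn6*+/mev library lay above every wild-type library, although the nearest pair, 2.77 and 2.25, was close. The mean was 4.21 ± 1.84 FPKM (SD, n = 3) against 1.48 ± 0.70, and the fitted log2 fold change was 1.41 with a standard error of 0.40, a 2.66-fold higher level that did not pass the threshold (edgeR quasi-likelihood FDR = 0.209). *Arntl* was the only 1 of the 10 genes whose groups did not overlap in FPKM, a pattern that 20.4% of all tested genes showed. The counts behind these levels were low, 28 in wild-type replicate 1 (exact 95% Poisson interval 18.6 to 40.5) and 184 in *Ptpn6*+/mev replicate 1 (158 to 213), intervals that cover counting error only. *Arntl* shares 33 exon bases with *Gm45355* on the opposite strand, which has no row in the table.

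*Npas2* (ENSMUSG00000026077, chr1:39193731-39363236), whose product can stand in for CLOCK, was at 2.95, 0.91 and 1.57 FPKM in *Ptpn6*+/mev and at 0.33, 0.71 and 1.5 FPKM in wild-type kidneys. The groups overlapped, since wild-type replicate 3 lay above *Ptpn6*+/mev replicate 2. Its log2 fold change was 1.02 (SE 0.57, FDR = 0.541), and 0.48 without *Ptpn6*+/mev replicate 1. *Clock* (ENSMUSG00000029238, chr5:76209868-76304792) varied little, with 6.91, 5.24 and 5.76 FPKM in *Ptpn6*+/mev and 5.16, 5.74 and 4.86 FPKM in wild-type kidneys. Its log2 fold change of 0.12 (SE 0.16, FDR = 0.834) was smaller than the spread between mice.

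**Figure D1:**
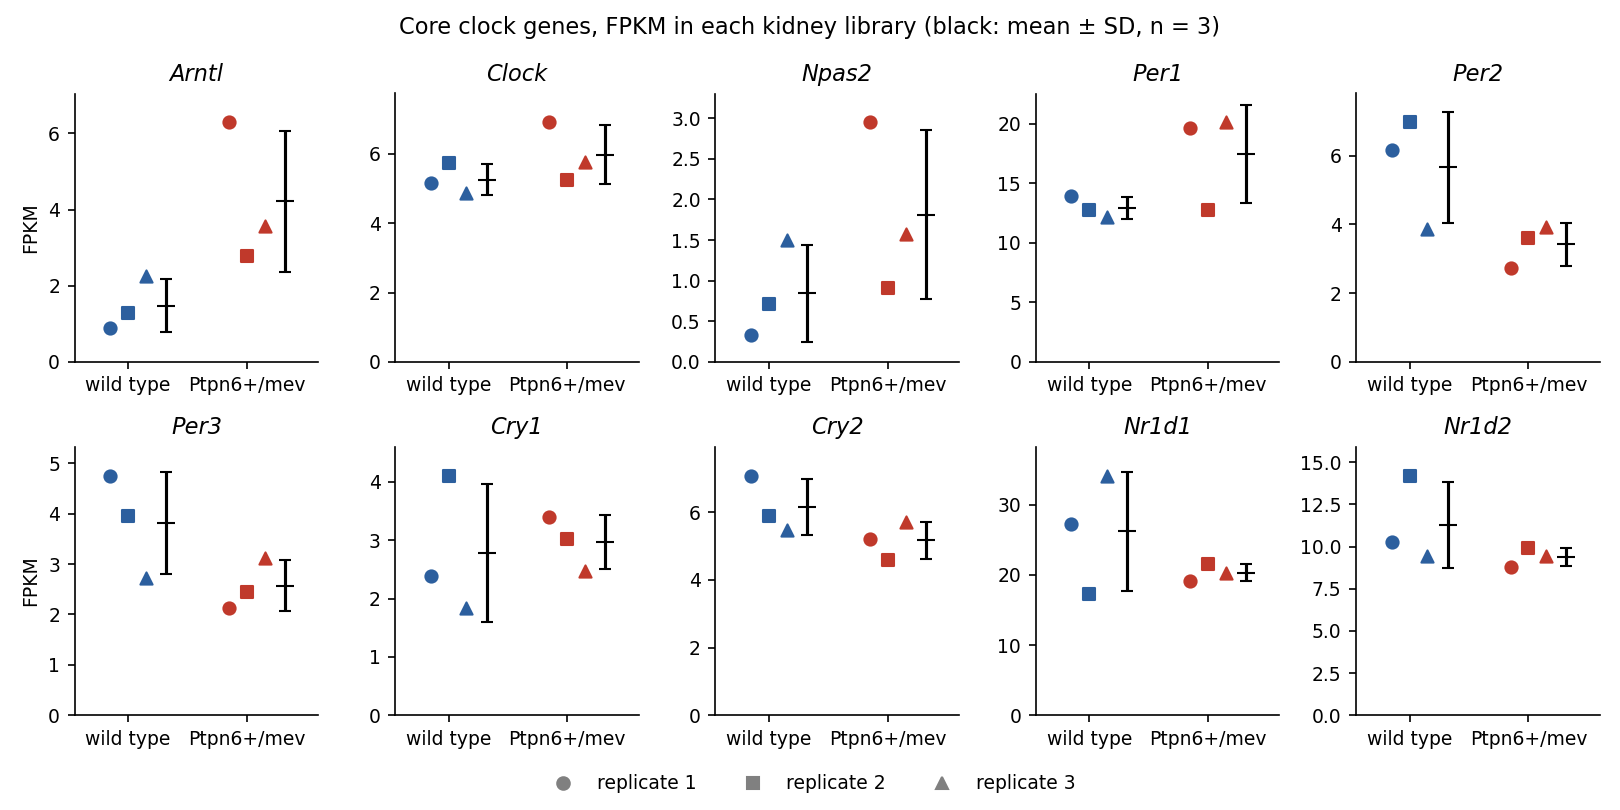
FPKM (vertical axes, each from 0) of the 10 clock genes in the 3 wild-type (blue) and 3 Ptpn6+/mev (red) libraries, with marker shape for the replicate number and mean ± SD in black. *Arntl* is the only gene whose groups do not overlap in FPKM, and *Per2* comes closest after it, with 3.86 FPKM in the lowest wild-type library and 3.92 in the highest Ptpn6+/mev library.

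The *Per* genes, which encode inhibitors of the BMAL1 pair, did not share a direction. *Per2* (ENSMUSG00000055866, chr1:91415982-91459324) was at 2.73, 3.60 and 3.92 FPKM in *Ptpn6*+/mev and at 6.16, 6.97 and 3.86 FPKM in wild-type kidneys, with a log2 fold change of -0.81 (SE 0.25, FDR = 0.242). The groups met at wild-type replicate 3 in FPKM, and in CPM, where that library was at 22.43 and the highest *Ptpn6*+/mev library at 22.34, they did not overlap. *Per3* (ENSMUSG00000028957, chr4:151003652-151044665) was at 2.13, 2.45 and 3.13 FPKM against 4.76, 3.96 and 2.73 FPKM, a log2 fold change of -0.64 (SE 0.24, FDR = 0.326), and again wild-type replicate 3 lay within the *Ptpn6*+/mev range. *Per1* (ENSMUSG00000020893, chr11:69095217-69109960) went the other way, with 19.62, 12.75 and 20.14 FPKM in *Ptpn6*+/mev and 13.96, 12.76 and 12.15 FPKM in wild-type kidneys. Its log2 fold change was 0.37 (SE 0.16, FDR = 0.397), and *Ptpn6*+/mev replicate 2 was at the wild-type level. The glucocorticoid-induced genes *Tsc22d3* and *Sgk1* were likewise higher in *Ptpn6*+/mev replicates 1 and 3 than in replicate 2, at 41.64 and 45.39 against 23.15 FPKM for *Tsc22d3*, and whether this bears on *Per1* was not tested. For *Per1* the ratio of deposited count to FPKM also varied 1.31-fold between libraries, against a median of 1.03-fold over all tested genes.

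Of the *Cry* genes, whose products complete the inhibitory complex, *Cry1* (ENSMUSG00000020038, chr10:85131700-85185064) was at 3.40, 3.02 and 2.48 FPKM in *Ptpn6*+/mev and at 2.38, 4.11 and 1.84 FPKM in wild-type kidneys. The *Ptpn6*+/mev values lay inside the wild-type range, and the log2 fold change was 0.01 (SE 0.33, FDR = 0.994). *Cry2* (ENSMUSG00000068742, chr2:92403646-92434043) was at 5.21, 4.6 and 5.71 FPKM against 7.09, 5.89 and 5.48 FPKM, a log2 fold change of -0.33 (SE 0.17, FDR = 0.496), with overlap at wild-type replicate 3. *Cry2* shares 295 exon bases with *D930015M05Rik* on the opposite strand, a gene without a row in the table.

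The REV-ERB genes encode the repressors of *Arntl*. *Nr1d1* (ENSMUSG00000020889, chr11:98767932-98775333) was at 19.11, 21.55 and 20.32 FPKM in *Ptpn6*+/mev and at 27.22, 17.23 and 34.17 FPKM in wild-type kidneys, a log2 fold change of -0.43 (SE 0.20, FDR = 0.437). Wild-type replicate 2 was the lowest of the 6 libraries and the other wild-type libraries the highest. Without it the log2 fold change was -0.64 (edgeR FDR = 0.0287), and *Nr1d1* was then the 1 clock gene past the threshold, where 1.8% of the genes tested passed. Without wild-type replicate 3, the highest library, the log2 fold change was -0.21 (edgeR FDR = 0.635). *Nr1d1* shares 263 exon bases with *Thra* on the opposite strand, whether counting used the strand is not stated, and its counts were fractional in all 6 libraries, so reads of both genes may be mixed. The log2 fold change of *Thra* was -0.05. *Nr1d2* (ENSMUSG00000021775, chr14:18204054-18239127) was at 8.82, 9.92 and 9.43 FPKM against 10.27, 14.22 and 9.44 FPKM, with a log2 fold change of -0.21 (SE 0.12, FDR = 0.548). Its ratio of count to FPKM varied 1.28-fold between libraries and was lowest in wild-type replicate 2, the library with 14.22 FPKM.

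Of the 10 genes, 0 passed an FDR of 0.05 in edgeR's quasi-likelihood test, where 0.138% of the 13036 genes passed. At an unadjusted p under 0.05 the count was 4, *Arntl* and *Per1* higher and *Per2* and *Per3* lower, against 12.2% of all genes. DESeq2's Wald test called 1 (*Arntl*, adjusted p = 0.0292), where it called 2.97% of all genes, and edgeR's exact test also called only *Arntl* (FDR = 0.0355), where it called 2.99%. The log2 fold change was above 0 for 5 genes and below 0 for 5. As the genes were chosen on this contrast, nothing is read from these counts.

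**Figure D2:**
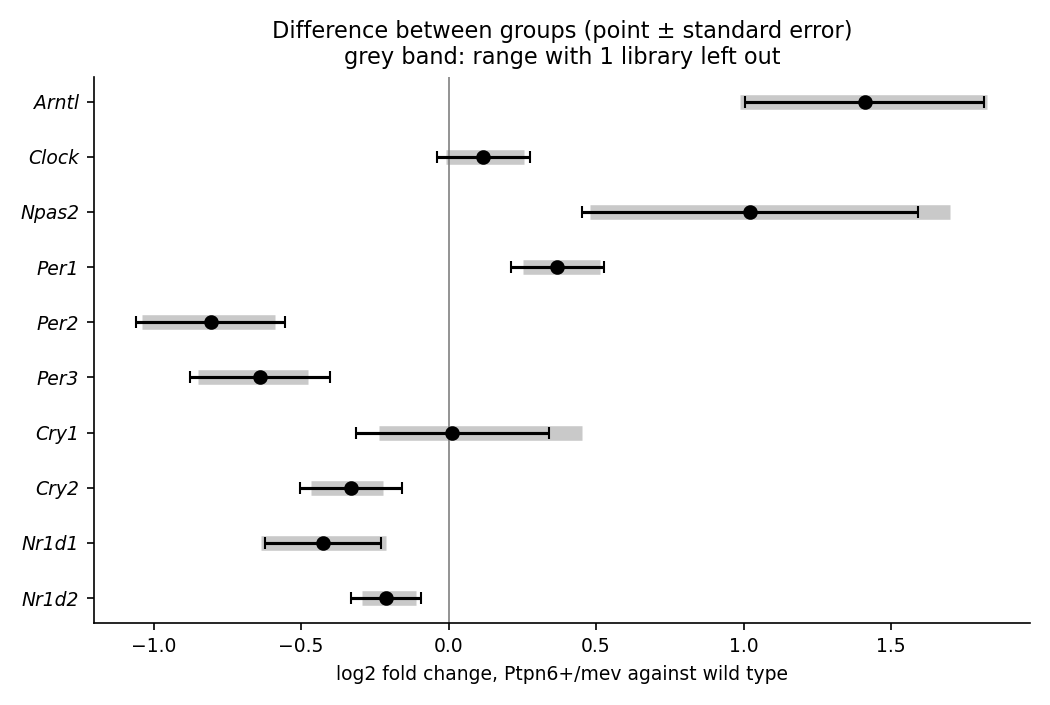
Log2 fold change of each clock gene, Ptpn6+/mev against wild type (horizontal axis), as the edgeR estimate ± standard error (points and bars), with the range of the estimate when 1 library is left out (grey bands). *Arntl* ranges from 0.99 to 1.83 and *Npas2* from 0.48 to 1.70, and the bands of *Clock* and *Cry1* include 0.

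Ordered by mean FPKM, the wild-type kidneys had *Nr1d1* at the top with 26.2, then *Per1* with 13.0, *Nr1d2*, *Cry2*, *Per2*, *Clock*, *Per3*, *Cry1*, *Arntl* with 1.48 and *Npas2* with 0.85. Neighbours in this order overlapped over the mice except *Nr1d1* and *Per1*, *Nr1d2* and *Cry2*, and *Clock* and *Per3*. In the *Ptpn6*+/mev kidneys *Nr1d1* with 20.3, *Per1* with 17.5 and *Nr1d2* with 9.39 FPKM again led and *Npas2* with 1.81 was last. There *Arntl* stood at rank 6 rather than 9, but every neighbouring pair from *Clock* downwards overlapped.

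The relation of the genes within each library was read from log2 CPM, counts scaled to library size (CPM) on a log2 scale, after subtracting each gene's mean over the 6 libraries. *Ptpn6*+/mev replicate 1 was the highest library for *Arntl*, *Clock*, *Npas2* and *Per1* and the lowest for *Per2*, *Per3* and *Nr1d2*. Wild-type replicate 1 was the lowest for *Arntl*, *Npas2* and *Per1* and the highest for *Per3* and *Cry2*. For *Per1* this order held in counts only. In FPKM wild-type replicate 1 was its highest wild-type library and *Ptpn6*+/mev replicate 3 its highest library of all. Between these libraries *Arntl* spanned 6.32-fold, *Npas2* 7.86-fold and *Per3* 2.28-fold on the log2 CPM scale, whose prior count of 2 draws low counts together. The spans of *Per2*, 2.80-fold, and *Nr1d2*, 1.41-fold, ran from *Ptpn6*+/mev replicate 1 to wild-type replicate 2. Wild-type replicate 3 was the wild-type library nearest to the *Ptpn6*+/mev range in *Arntl* (-0.05) and *Per2* (-0.17), and lay inside that range in *Npas2* (0.46) and *Per3* (-0.18). It was the highest of the 6 libraries in *Nr1d1* (0.58) and the lowest in *Cry1* (-0.59) and *Clock* (-0.23). With 1 kidney per mouse at 1 time after surgery and no recorded time of day, an order of the libraries by clock phase cannot be set.

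**Figure D3:**
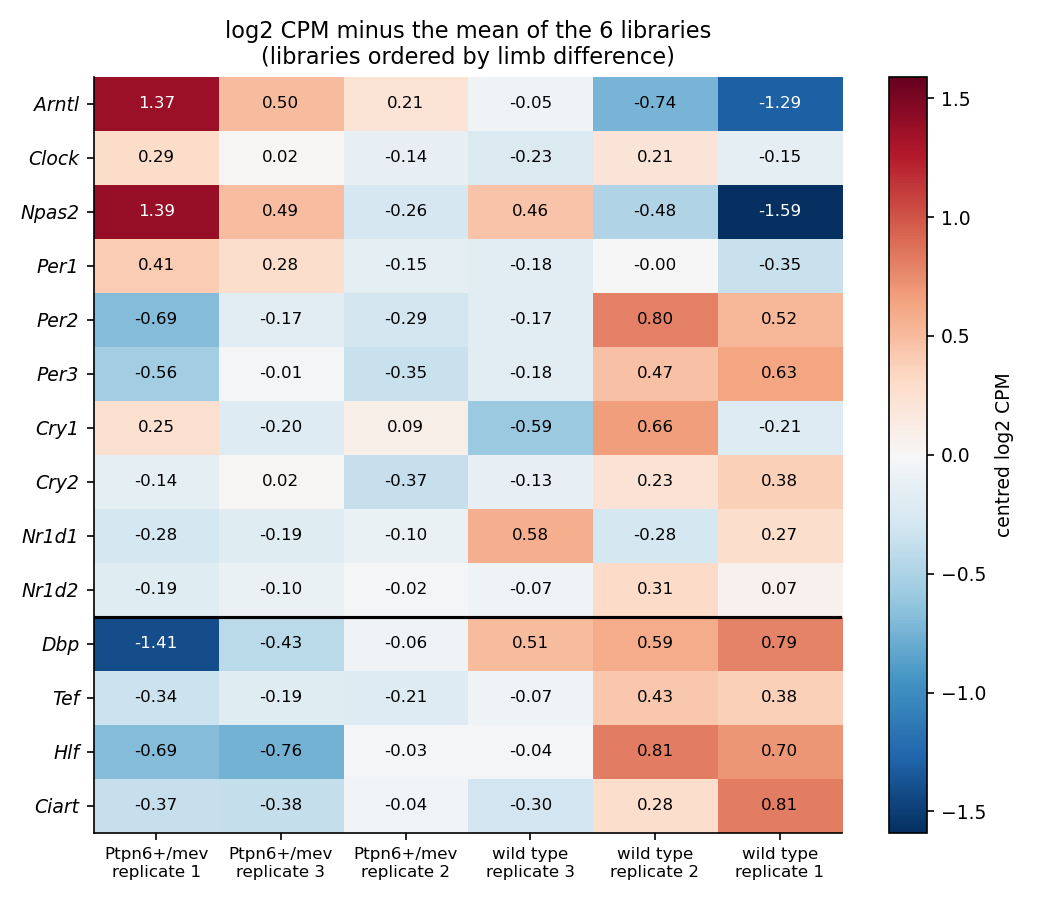
Log2 CPM of the 10 clock genes and, below the line, 4 clock output genes, minus each gene's mean over the 6 libraries (colour and printed value), with libraries ordered by the limb difference. *Arntl* and *Npas2* run from 1.37 and 1.39 in Ptpn6+/mev replicate 1 to -1.29 and -1.59 in wild-type replicate 1, and *Dbp* runs from -1.41 to 0.79.

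The limb difference, the mean log2 CPM of *Arntl*, *Clock* and *Npas2* minus that of the *Per* and *Nr1d* genes, was -0.51, -1.67 and -1.41 in the *Ptpn6*+/mev libraries and -3.02, -2.38 and -1.72 in the wild-type libraries. The groups did not overlap, though *Ptpn6*+/mev replicate 2 and wild-type replicate 3 differed by little. The means were -1.19 ± 0.61 and -2.38 ± 0.65 (SD, n = 3), a difference of 1.18 that is a description with no test. It was 1.18 without wild-type replicate 2, and from 0.84 to 1.51 over the 6 libraries left out in turn. The centred positive arm alone overlapped between the groups, while the *Per* and *Nr1d* arm alone differed by -0.32, its groups kept apart only by the small gap between *Ptpn6*+/mev replicate 3 at -0.041 and wild-type replicate 3 at -0.0035. On the log2 FPKM scale, tried after the data were seen, the arm differed by -0.28 and the groups overlapped.

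**Figure D4:**
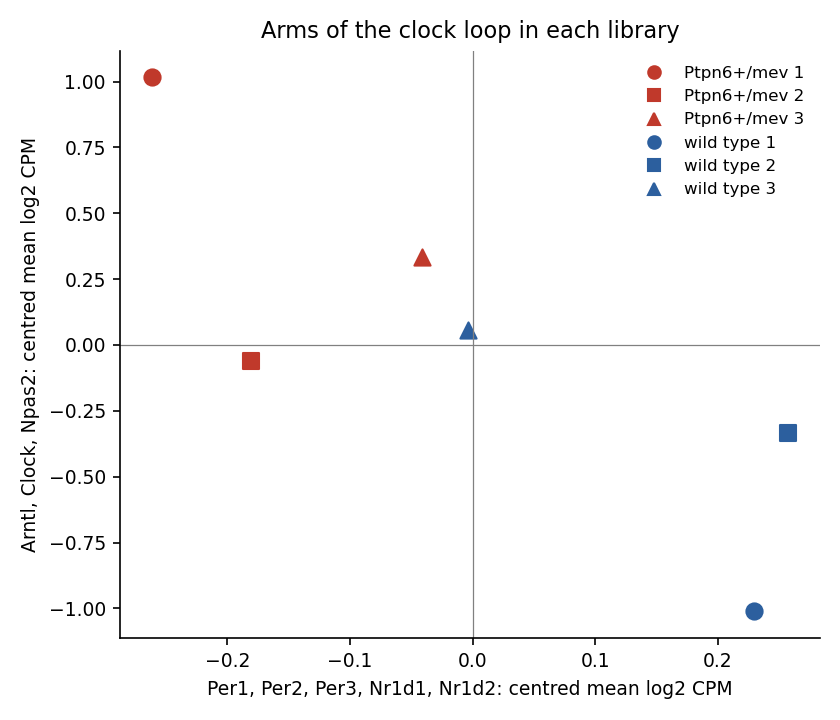
Mean centred log2 CPM of *Arntl*, *Clock* and *Npas2* (vertical axis) against that of the *Per* and *Nr1d* genes (horizontal axis), 1 point per library, red for Ptpn6+/mev and blue for wild type. Ptpn6+/mev replicate 1, at 1.02 and -0.26, and wild-type replicate 1, at -1.01 and 0.23, lie at the ends of the vertical axis, and on the horizontal axis wild-type replicate 2 lies slightly further right, at 0.26.

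Ratios of gene pairs were then taken within each library, on the log2 FPKM scale. *Arntl* to *Per2* was 1.20, -0.38 and -0.13 in *Ptpn6*+/mev and -2.79, -2.43 and -0.78 in wild-type libraries. *Arntl* to *Nr1d1* was -1.60, -2.96 and -2.50 against -4.93, -3.74 and -3.92. The ratios of *Arntl* to *Per3*, of *Arntl* to *Clock* and of *Per1* to *Per2* also did not overlap between the groups, whereas *Npas2* to *Per3*, *Npas2* to *Clock*, *Nr1d1* to *Nr1d2* and *Cry1* to *Cry2* did. Ratios with *Arntl* share its values and are not separate pieces of evidence. The ratio of *Per1* to *Per2* sets a gene with a higher mean against a gene with a lower mean. The share of other gene pairs without overlap was not taken, so nothing is read from these pairs.

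Among genes next to the loop, 0 in the 3 related lists passed an FDR of 0.05 in the quasi-likelihood test, where 0.138% of all tested genes passed. The genes that DESeq2 or the exact test called are named with their lists. Of 28 kinases, ligases and partners of the clock proteins, 1 had an unadjusted p under 0.05 (*Ep300*, log2 fold change -0.22), against 12.2% of all tested genes. The median of the 28 was 0.02 beside -0.002 over all tested genes. The most abundant of them, *Ppp1cc*, *Nono* and *Csnk1d*, had log2 fold changes of 0.09, 0.17 and -0.07.

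The 7 output factors, transcription factors driven by the loop that pass its rhythm on, had a median log2 fold change of -0.51. *Dbp*, the D-box activator, was at 13.20, 34.82 and 25.98 FPKM in *Ptpn6*+/mev and at 58.94, 47.63 and 49.11 FPKM in wild-type kidneys, without overlap, a log2 fold change of -1.17 (SE 0.29, FDR = 0.159). *Tef* (-0.51, FDR = 0.193) and *Hlf* (-0.996, FDR = 0.195), which bind the same letters, were lower as well at an unadjusted p under 0.05, and *Bhlhe40*, a repressor at E-boxes, was at -0.31. DESeq2 called 3 of the 7, *Dbp* (adjusted p = 0.0035), *Hlf* (0.0214) and *Tef* (0.0480), and edgeR's exact test called 2, *Dbp* and *Hlf*, where these tests called 2.97% and 2.99% of all genes. With 1 library left out, the highest quasi-likelihood FDR was 0.516 for *Dbp*, 0.545 for *Tef* and 0.582 for *Hlf*, and *Tef* passed without wild-type replicate 3 (-0.65, FDR = 0.0465). Of 20 kidney genes known to follow the clock, 3 were higher and 4 lower at that unadjusted threshold, which 12.2% of all tested genes passed, with a median of -0.07. The most abundant, the water channel gene *Aqp2*, was at 173.01, 121.61 and 227.54 FPKM in *Ptpn6*+/mev and at 142.79, 430.77 and 134.91 FPKM in wild-type kidneys, highest in wild-type replicate 2, with a log2 fold change of -0.54 (FDR = 0.716). *Sgk1* (0.56), *Tsc22d3* (0.79) and the vasopressin receptor gene *Avpr1a* (0.55) were the higher ones. The sodium-proton exchanger gene *Slc9a3* (-0.70, FDR = 0.104), *Slc6a9* (-0.59), the thiazide-sensitive cotransporter gene *Slc12a3* (-0.43) and *Por* (-0.42) were the lower ones, of which DESeq2 and the exact test each called 2, *Slc9a3* and *Por*. *Slc9a3* is a proximal tubule gene, and the summed proximal tubule markers were lower in the same mice. *Ppara*, a nuclear receptor known to be linked to the clock, was at 15.73, 12.34 and 16.14 FPKM against 22.23, 28.94 and 21.79 FPKM, a log2 fold change of -0.81 (FDR = 0.104).

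**Figure D5:**
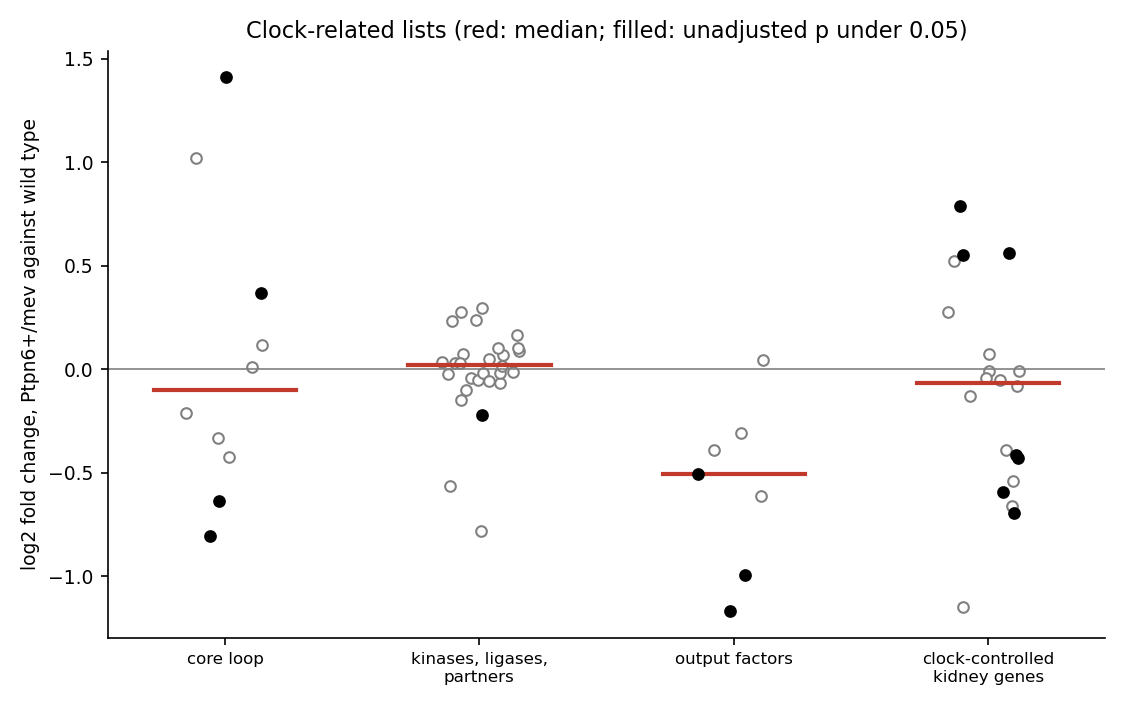
Log2 fold change, Ptpn6+/mev against wild type (vertical axis), of each tested gene of the core loop and of 3 clock-related lists, with medians in red and genes at an unadjusted p under 0.05 filled. The output factors have a median of -0.51, while the 28 kinases, ligases and partners have a median of 0.02 and run from -0.78 to 0.30.

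The genes whose centred log2 CPM lay nearest to that of *Arntl* over the 6 libraries, by root mean square difference among 13035 genes, were *Col24a1* (0.14), *Ncapg* (0.32), *Neil2* (0.36), *Rdh12* (0.36) and *Zfp648* (0.36). *Npas2*, at 0.33, ranked 3 among all genes when the members were kept in, while *Per1* ranked 384 and *Clock* 2505. Nearest to the mirror image of *Arntl* were *Cckar* (0.23), *Tstd1* (0.23), *Slc13a3* (0.24), *Wnt5b* (0.28) and *Ces2b* (0.28), and *Dbp* ranked 7 at 0.29. Of the members, *Per2* ranked 62 there, *Per3* 95, *Cry2* 910, *Nr1d2* 1468, *Nr1d1* 2402 (at 0.78) and *Cry1* 9810. A gene with no variation would be at 0.85, and 5498 genes were closer to *Arntl* than that. *Slc13a3* belongs to the proximal tubule markers. Some of these genes were near the floor, with *Col24a1* at or under 0.35, *Ncapg* at or under 0.47 and *Ces2b* at or under 1.11 FPKM in every library.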

How the data were processed

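Poly-A mRNA from 6 kidneys, 1 library per mouse, was sequenced as read pairs. The authors trimmed the reads and aligned them to GRCm38.p5 (Ensembl annotation) with TopHat; the submitters' processing notes also name Bowtie2, Cufflinks and RSEM. The authors deposited 1 table with an estimated count (expected count, not always whole) and an FPKM value per gene and library. The tool behind the counts is not stated. Column names marking heterozygous mice were matched to the labelled *Ptpn6*+/mev samples.

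Rounded counts went into a quasi-likelihood F-test of edgeR 4.0.16 (R 4.3.3) after filterByExpr and TMM scaling, with Benjamini-Hochberg adjustment over 13036 genes. Alternatives were DESeq2 1.42.0, edgeR's exact test, DESeq2 size factors, no filter, limma 3.58.1 on log2(FPKM + 1) and log2(FPKM + 0.1), a block for replicate number, and leaving out each library. Log2 CPM used a prior count of 2. The p-values set the difference between groups against the spread between 3 mice per group, which was estimated partly from other genes. Positions are from GENCODE on GRCm38, and motif letters were searched in RefSeq promoters (GRCm38.p6).

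The members and lists were chosen with earlier results of these data known. Named genes are the 10 members, *Ptpn6*, *Ppara*, in each related list every gene with an FDR under 0.05 and the 3 most abundant, and the 5 genes most like *Arntl* and the 5 most like its mirror image. *Thra*, *Vcam1*, *Havcr1*, *Spp1*, *Ciart* (plotted only) and the genes of related lists at an unadjusted p under 0.05 were named after their values were seen, results of 1 related list are not reported here, and the narrower receptor motif was added after the matches of the looser one were seen.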

Additional observations from a re-analysis of the deposited data

How the results depend on the processing

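Under 13 alternatives for each of the 10 clock genes, 122 of 130 results kept their direction and their side of the threshold. *Arntl* passed with DESeq2 (log2 fold change 1.41) and with edgeR's exact test (1.41), and *Nr1d1* without wild-type replicate 2 (-0.64). With 1 library left out *Clock* ranged from -0.010 to 0.26 and *Cry1* from -0.24 to 0.45. The sign turned for *Clock* without *Ptpn6*+/mev replicate 1 (-0.010) and for *Cry1* without *Ptpn6*+/mev replicate 1 (-0.10), without *Ptpn6*+/mev replicate 2 (-0.0043), without wild-type replicate 1 (-0.11) and without wild-type replicate 3 (-0.24). The count of clock genes past the threshold was 0, or 1 with DESeq2, 1 with the exact test and 0 to 1 with 1 library left out. Over all genes it was 18, against 387 with DESeq2, 390 with the exact test, 52 with no filter, and 1 to 237 with 1 library left out, the most without wild-type replicate 2. The cause was not tested. The FDR of *Arntl* ranged from 0.0292 to 0.538 over all alternatives. The limb difference ranged from 0.84 to 1.51 with 1 library left out, and was 0.83 on log2(FPKM + 1). The fit with the replicate number as a block called 1 gene over all and 0 clock genes. Deviations from the group means correlated across genes at -0.14, -0.18 and -0.13 for same-numbered libraries. For libraries of other numbers they correlated at -0.01 to 0.16. As deviations from a mean of 3 libraries sum to 0, these values cannot decide whether the numbers pair the mice, and the labels state no pairing. *Arntl* and *Npas2*, with as few as 28 and 15 counts in a library, are the genes whose precision depth limits most.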
